A study of Mus musculus with 36 samples.

Results

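The genes described here are the protein-coding mouse genes on chromosome 7 whose symbol is Zfp followed by digits only, chosen by symbol and position in the GENCODE annotation of mm10 and not by any measured value. There were 89 of them among 20722 protein-coding genes of chromosomes 1 to 19. Another 269 genes with such a symbol lie on the other autosomes, and chromosome 7 holds 1920 other protein-coding genes. DNA methylation was measured in 36 single brains of E11.5 mouse embryos, using reduced representation bisulfite sequencing after oxidation. This method reads the CpG-rich fragments that restriction enzymes release, and the oxidation step makes 5-methylcytosine, but not 5-hydroxymethylcytosine, read as methylated.

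The embryos came from Tet1+/- intercrosses of the strain labelled 129S6.Cg Tet1tm1Koh, in which a cassette is inserted at the first coding ATG of Tet1. They were Tet1+/+ (WT), Tet1+/- (HET) or Tet1-/- (KO). The dams ate a custom diet whose folic acid content was 3 ppm in the control, raised to 30 ppm in the excess or lowered to 0.1 ppm in the depleted diet, and every diet also held the antibiotic succinylsulfathiazole. The brain was taken from the forebrain to the hindbrain above the otic vesicle. WT groups held 3, 4 and 2 embryos on 30, 3 and 0.1 ppm, HET groups 5, 3 and 2, and KO groups 6, 5 and 5, which makes 35 embryos compared. A further HET library on 0.1 ppm, the one of lowest coverage, was excluded by the study as an outlier and was left out here too. The titles give a phenotype other than norm (NTD or inHB) to 9 of 16 KO, 2 of 10 HET and 1 of 9 WT embryos, so genotype and malformation partly coincide. The allele is constitutive and whole brain is a mixture, so a change in the level per cell and a change in the share of cell types cannot be told apart, and the files hold no expression with which to check the labelled tissue.

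Zfp genes of this kind mostly encode C2H2 zinc finger proteins, and many also carry a KRAB domain at the start of the protein. KRAB zinc finger proteins bind DNA through the finger array and recruit TRIM28 (KAP1), which brings the histone methyltransferase SETDB1 and heterochromatin proteins to silence retrotransposons and imprinted regions. Many of these genes arose by duplication and stand in tandem clusters. Often the start of transcription lies in a CpG island and the finger array is encoded in a long last exon. Not every gene described here has this form: Zfp143 has 16 exons and a last exon of 518 bp. TET1 oxidises 5-methylcytosine and is a route by which methylation is removed, so the comparison of KO with WT asks where methylation is higher without it.

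The 36 libraries held 23190717 to 197322320 CpG calls, with a mean coverage of 10.9 to 61.5 reads per CpG. Levels were compared over 921363 CpGs covered by at least 5 reads in all 35 embryos. The mean of these CpGs was 31.2 to 32.4% in WT, 31.8 to 32.7% in HET and 33.7 to 34.8% in 15 of the 16 KO libraries, while KO replicate 1 of 30 ppm had 31.6%. The highest WT means were those of WT replicate 2 of 30 ppm (32.4%) and of 0.1 ppm (32.0%), and the other 7 WT libraries had 31.2 to 31.8%. A CpG in Tet1 (mm10 chr10:62884019) was read beside the labels. It was picked as the compared CpG of Tet1 with the largest KO minus WT difference, with the 3 libraries named below set aside. The split between the remaining WT and KO libraries therefore follows in part from that choice. This CpG was methylated at 0 to 7.32% in 7 WT libraries, at 8.33 to 69.2% in HET and at 69.6 to 100% in 15 KO libraries. The library labelled KO replicate 1 of 30 ppm had 45% there. Those labelled WT replicate 2 on 30 ppm and on 0.1 ppm had 36.36 and 40%. The sample list published with the study gives the embryo labelled KO among these as HET. These 3 libraries were kept under their labels, so the KO group of 16 and that of 6 on 30 ppm include an embryo whose genotype is in doubt. Counts of called genes, and the differences of the genes on which the results turn, are also given without them. Leaving them out drops the lowest KO mean and the highest WT means, which by itself widens the gap between these genotypes.

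The sequences below are the stretches with the largest summed KO minus WT difference in genes on which the results turn. They are from mm10, 5′ to 3′ along the strand of the gene, with the CpGs that were measured in all 35 embryos in capitals. The promoter stretches were those of Zfp108 (chr7:24254955-24254994, + strand), Zfp84 (chr7:29769165-29769215, +), Zfp819 (chr7:43607470-43607645, +) and Zfp579 (chr7:4994337-4994518, −). That of Zfp579 stands 822 to 1003 bp after the start, and its 13 measured CpGs are coding. The last exon stretches, all of which lie in coding sequence, were those of Zfp36 (chr7:28377989-28378069, −), Zfp575 (chr7:24585985-24586044, −), Zfp579 (chr7:4993928-4994019, −), Zfp30 (chr7:29792953-29793137, +) and Zfp444 (chr7:6189536-6189704, +). They show how few CpGs carry some of the values that follow, and how densely the CpGs stand in others.
Zfp108 promoter: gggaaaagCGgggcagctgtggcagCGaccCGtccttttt
Zfp84 promoter: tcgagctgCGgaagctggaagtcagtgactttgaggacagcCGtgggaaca
Zfp819 promoter: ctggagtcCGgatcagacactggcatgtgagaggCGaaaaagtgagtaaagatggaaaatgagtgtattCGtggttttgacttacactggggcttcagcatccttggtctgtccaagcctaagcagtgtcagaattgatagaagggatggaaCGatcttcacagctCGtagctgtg
Zfp579 promoter: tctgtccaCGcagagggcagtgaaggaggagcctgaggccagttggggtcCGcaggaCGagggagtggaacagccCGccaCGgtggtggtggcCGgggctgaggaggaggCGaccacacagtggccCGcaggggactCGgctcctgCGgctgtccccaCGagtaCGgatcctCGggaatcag
Zfp36 last exon: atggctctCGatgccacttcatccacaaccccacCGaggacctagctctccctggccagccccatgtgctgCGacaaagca
Zfp575 last exon: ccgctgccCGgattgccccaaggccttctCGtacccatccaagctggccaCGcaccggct
Zfp579 last exon: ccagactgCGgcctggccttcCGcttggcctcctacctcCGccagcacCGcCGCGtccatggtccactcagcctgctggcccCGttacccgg
Zfp30 last exon: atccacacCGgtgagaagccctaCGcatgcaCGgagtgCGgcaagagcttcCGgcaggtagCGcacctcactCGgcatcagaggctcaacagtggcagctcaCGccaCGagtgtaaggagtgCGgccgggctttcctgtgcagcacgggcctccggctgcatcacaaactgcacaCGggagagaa
Zfp444 last exon: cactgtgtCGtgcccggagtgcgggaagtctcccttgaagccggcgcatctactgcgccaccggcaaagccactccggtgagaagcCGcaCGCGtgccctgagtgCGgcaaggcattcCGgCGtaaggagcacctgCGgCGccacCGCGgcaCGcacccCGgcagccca

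The Zfp30 stretch holds a copy of the finger linker, the short peptide that joins neighbouring C2H2 fingers, searched on both strands of the last exon as the run AC, any base, GG, any base, GA, any base, AA, any base, CC. At least 3 copies on the coding strand were found in 56 of the 89 genes (62.9%), in 57.6% of the Zfp genes on other autosomes, in 0.781% of the other chromosome 7 genes and in 1.56% of all genes. No copy lay on the opposite strand in the 89 genes. A match to these letters is a description of the exon, and a last exon with none may still encode fingers joined in another way. Zfp36 had 0 copies and is not a C2H2 gene: it encodes tristetraprolin, an RNA-binding protein with CCCH fingers that promotes decay of messenger RNAs. The genes fell into 21 runs of neighbours at most 500 kb apart, and 9 runs of 3 or more genes held 77 of the 89. The longest run, from Zfp84 to Zfp146 (chr7:29768552-30169750), held 15 genes, and the next, from Zfp180 to Zfp526, held 14.

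Each gene was read in 3 pieces, namely the promoter (1 kb to either side of the transcription start), the last exon, and the rest of the gene with 2 kb on each side. A piece was compared where it held at least 3 CpGs, which left 66 promoters, 39 last exons and 45 remainders, and 80 of the 89 genes with the whole region pooled. There were 34 genes with both promoter and last exon and 71 with either. Nothing could be compared for Zfp114, Zfp128, Zfp235, Zfp551, Zfp788, Zfp940, Zfp941, Zfp976 and Zfp977. Compared promoters held a median of 10 MspI or TaqI sites (CCGG or TCGA), against 4 in promoters not compared, and compared last exons a median of 9 against 5. Promoters that were compared held 3 to 100 CpGs and last exons 3 to 117. Of the 89 genes, 22 shared measured CpGs with the region of another protein-coding gene, and 11 with another of the 89.

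In WT brain, promoters and last exons of these genes stood at opposite ends of the scale. Of 66 promoters, 59 were methylated under 10% (median of the 59, 0.698%), 7 at 10 to 50% and none over 50%. Among 39 last exons, 33 were over 50% (median of the 33, 91.7%), 4 at 10 to 50% and 2 under 10%. The median last exon was at 89.8% in these genes, 91.6% in the 61 compared on other autosomes, 83.8% in other chromosome 7 genes and 85.4% in all genes. The per-embryo median over the 39 last exons was 87.5 to 90.4% in WT, 89.4 to 93.0% in HET and 87.5 to 93.5% in KO, so the genotypes overlapped on this summary. The lowest last exon was that of Zfp771, with 117 CpGs at 1.11% ± 0.203 (SD, n = 9) in WT, and the highest that of Zfp764 at 96.2% ± 1.39. The lowest promoter was that of Zfp524 at 0.318% ± 0.389, whose 12 CpGs also lie in Fiz1, and the highest that of Zfp772 at 38.9% ± 6.53. CpGs from the first to the last linker copy found had a WT median of 92.3% over 22 genes, and the other CpGs of last exons 90.3% over 32 genes. The latter include all CpGs of last exons with no copy found, which may still encode fingers.

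**Figure D1:**
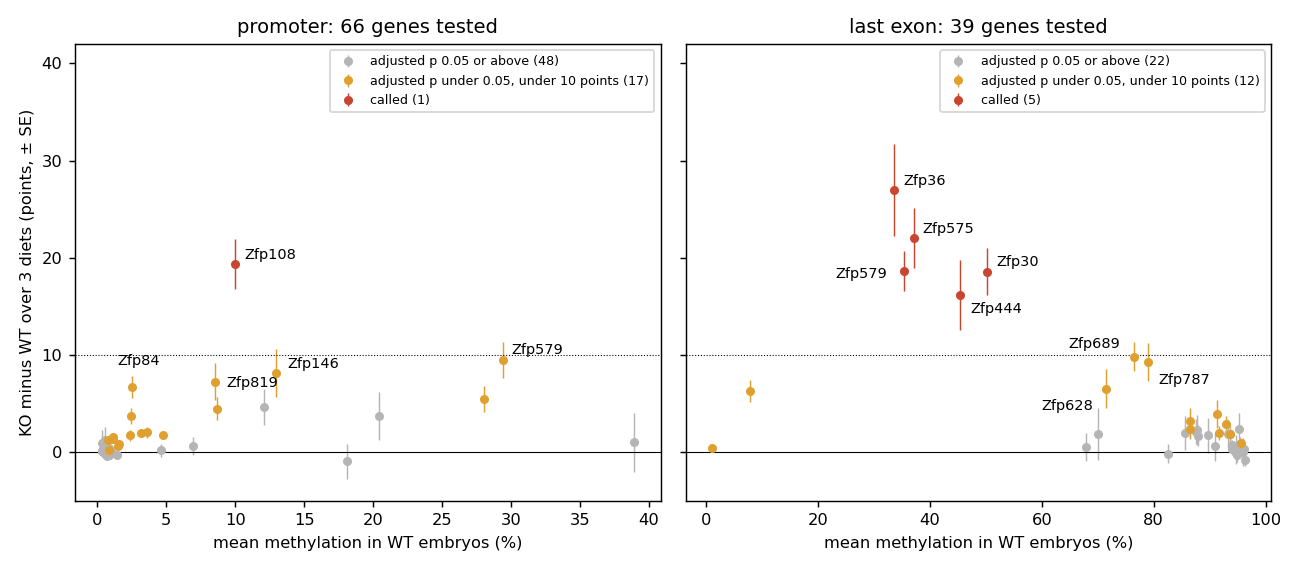
KO minus WT difference over 3 diets (points, ± SE) against the mean WT methylation (%) of each gene, promoters on the left (66 genes) and last exons on the right (39 genes). Red points passed the test with a difference of at least 10 points, orange points passed it with less, and the 5 red last exons sit between 33.6 and 50.25% in WT.

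Comparing KO with WT over the 3 diets, few of these genes gained as much as 10 points and none lost it. The WT level bounds such counts. Of the 66 promoters, 59 were under 10% in WT and had no room to lose as much, and last exons near full methylation had little room to gain it. Each difference is one of group means of the levels per embryo, with the 3 diets weighted equally. Its SE comes from the pooled spread within groups. The p-value came from a quasi-binomial model of the pooled reads with diet as a term. A gene is termed called where the Benjamini-Hochberg adjusted p over all genes was under 0.05 and the difference at least 10 percentage points. The promoter of Zfp108 was called, 1 of 66, beside 4.18% of all genes. The last exons of Zfp36, Zfp575, Zfp579, Zfp30 and Zfp444 were called, 5 of 39 (12.8%), beside 14.1% of all genes. The remainder of Zfp473 was called, 1 of 45, beside 6.87%, and the whole regions of Zfp108, Zfp579 and Zfp30, 3 of 80, beside 4.58%. None of these shares stood above that of all genes. Without the 3 doubtful libraries 2 of 66 promoters were called, beside 4.99% of all genes, 8 of 39 last exons (20.5%), beside 17.4%, 2 of 45 remainders, beside 10.1%, and 5 of 80 whole regions, beside 6.35%. In embryos with the phenotype label norm only, 2 promoters, 7 last exons (17.9%) and 2 remainders were called, beside 4.88%, 16.3% and 9.18%. The last exon share was above that of all genes in both alternatives and below it with all libraries, and no such difference was tested. Both alternatives keep 1 WT embryo on 0.1 ppm, which then has the weight of a whole diet.

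With no limit on size, 18 of the 66 promoters had an adjusted p under 0.05 and were higher in KO, beside 30.2% of all promoters, and 17 of the 39 last exons were, beside 49.6%. None was lower in KO at that threshold. The median difference was 0.21 points over the promoters and 1.88 points over the last exons, beside 0.17 and 2.44 points over all genes. It was positive for 50 of 66 promoters and 36 of 39 last exons, beside 76.96% and 91.65% of all genes. The Zfp genes on other autosomes had 5 of 189 promoters and 8 of 61 last exons called, with medians of 0.11 and 1.74 points, and the other chromosome 7 genes had 47 of 931 and 57 of 289.

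Zfp108, which lies in the run of 14 genes, had the largest promoter difference. Its WT embryos ranged from 4.55 to 22.2% (median 9.49%), HET from 4.35 to 18.2% (median 10.9%) and KO from 12.9 to 39.1% (median 30.9%). WT and HET lay together at the bottom, 13 of 16 KO embryos stood higher than any WT embryo, and the lowest KO value was that of the library labelled KO replicate 1 of 30 ppm. The means were 10.0% ± 5.60 (SD, n = 9) and 29.2% ± 6.5996 (n = 16), and the difference was 19.3 points (SE 2.57, adjusted p = 1.01e-07). All 3 compared CpGs stand at −77 to −55 bp from the start of the transcript used, inside the annotated gene, and rose from 9.54 to 10.5% in WT to 27.2 to 32.6% in KO. KO was higher than WT in 8 of 8 litters that held both, by 6.52 to 26.6 points. Litters 36, 41 and 50 among these hold a doubtful library, which is the only WT embryo of litters 41 and 50. Litter counts here and below were not recomputed without such libraries. Without the 3 doubtful libraries the difference was 23.5 points.

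The other promoters differed by under 10 points. Single CpGs were read in 7 of them, and those that rose by over 10 points were 15 of 39 in Zfp579, 6 of 16 in Zfp819, 6 of 29 in Zfp541, 2 of 10 in Zfp84, 1 of 3 in Zfp146, 0 of 12 in Zfp575 and 0 of 8 in Zfp27. Zfp579 ranged from 20.5 to 37.3% (median 29.3%) in WT and from 30.3 to 43.68% (median 38.8%) in KO, a difference of 9.50 points (SE 1.88, adjusted p = 1.82e-05), and of 7.69 points without the 3 doubtful libraries. The transcript used for this gene has 1 exon, so its promoter window reaches 25 coding CpGs at 15.7 to 69.8% in WT. The 14 CpGs before the start of that transcript stayed at or under 1.5% in WT and 5.3% in KO. Of the 39 CpGs, 38 lie inside the annotated gene, which begins further upstream. The Zfp84 promoter went from 2.53% ± 1.51 in WT to 9.13% ± 3.24 in KO (difference 6.74 points, SE 1.14, adjusted p = 4.38e-07, and 7.65 points without the doubtful libraries). Only CpGs 621 and 654 bp after its start carried that difference, with 12.2 and 4.35% in WT against 39.8 and 22.7% in KO, and the other 8 were under 2% in both genotypes. With a promoter of 500 bp to either side the difference was 0.362 points (adjusted p = 0.454).

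The Zfp819 promoter showed such a gradient too. It ranged from 4.68 to 14.7% (median 7.88%) in WT and from 8.16 to 22.6% (median 15.9%) in KO, with overlap, and the difference was 7.27 points (SE 1.87, adjusted p = 2.46e-05). Its 5 CpGs from 253 to 411 bp after the start were at 13.1 to 39.1% in WT and 29.2 to 70.2% in KO, and all 16 CpGs were higher in KO. Over the CpGs with at least 10 reads the difference was 3.37 points, and without the doubtful libraries it was 9.38 points. Zfp541, a germ-cell zinc finger gene, went from 28.0% ± 3.13 to 33.2% ± 3.12 (difference 5.46 points, adjusted p = 0.000453, and 6.94 points without the doubtful libraries), with 20 of its 29 CpGs higher. Zfp27 differed by 4.46 points (adjusted p = 0.00842), but its difference was −2.26 points with a promoter of 500 bp to either side and 1.82 points (adjusted p = 0.0618) with equal weight per CpG. The Zfp575 promoter, which shares 9 of its 12 CpGs with Ethe1, differed by 4.67 points (adjusted p = 0.196).

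Zfp146, the last gene of the run of 15, had 3 promoter CpGs at −738 to −609 bp from its start. It went from 13.0% ± 3.87 in WT to 21.4% ± 7.56 in KO, a difference of 8.14 points (SE 2.49, adjusted p = 0.00208). With litter as a block the adjusted p was 0.0736, and KO was higher in 6 of 8 litters. Without the 3 doubtful libraries the difference was 10.7 points and the gene was called.

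The other promoters with an adjusted p under 0.05 were those of Zfp865, Zfp28, Zfp296, Zfp94, Zfp974, Zfp382, Zfp473, Zfp143, Zfp688, Zfp689 and Zfp629. They rose by 0.234 points in Zfp143, an activator of genes transcribed by RNA polymerases II and III, to 3.69 points in Zfp473, and all 11 were under 5% in WT.

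Over the 3 diets with all libraries, the largest promoter losses were small and none passed the test. Zfp180 differed by −0.956 points (adjusted p = 0.728), and by −1.67 to −0.244 points with an embryo left out. Zfp850 differed by −0.420 points (adjusted p = 0.305) and Zfp580, whose 10 CpGs all lie in Ccdc106, by −0.333 points (adjusted p = 0.388). On 30 ppm alone, with all libraries, the most negative promoter difference was −5.50 points. Zfp772, the promoter with the highest WT level, had 38.9% ± 6.53 in WT and 39.2% ± 6.88 in KO (difference 0.998 points, SE 3.07, adjusted p = 0.728). Of the promoters of all genes at 10 to 50% in WT, 42.3% were called, and 0 of the 7 promoters of these genes in that range were. Leaving out the 3 doubtful libraries, 1 of the 7 was (Zfp146), beside 47.4%.

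By position, the median promoter CpG was under 2% in both genotypes in each of 8 bins of 250 bp, while the means differed more between bins. In the 250 bp after the start, 487 CpGs of 46 genes had a mean of 1.25% in WT and 1.56% in KO. At 750 to 1000 bp after the start, 71 CpGs of 9 genes had a mean of 18.0% in WT and 24.7% in KO, with medians of 1.29 and 1.87%, and 60.6% of them were under 10% in WT. At −1000 to −750 bp, 35 CpGs of 8 genes had a mean of 14.3% in WT and 15.3% in KO, with medians of 0.570 and 0.676%. These outer CpGs come from few genes, Zfp579 among them.

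Among last exons, the 5 called genes were the ones in the middle of the scale. All 4 last exons at 10 to 50% in WT were called, where 74.8% of all genes in that range were. Of the 33 last exons over 50%, only Zfp30, which is at 50.25%, was called (3.03%), where 8.45% of all genes were. Without the 3 doubtful libraries 4 of the 33 were (12.1%), Zfp628, Zfp787 and Zfp689 in addition, where 11.9% of all genes were. With no limit on size, 11 of those 33 (33.3%) had an adjusted p under 0.05 and were higher in KO, where 43.72% of all genes were, and the median difference of the 33 was 1.83 points beside 2.40 points. The WT median of the 33 was 91.7%, beside 89.7% over all genes in that range. Whether this level bears on the share that passed was not tested. The 51 Zfp last exons over 50% on other autosomes had a WT median of 92.6%. Of those 51, 21 passed and were higher in KO and 3 were called, with a median difference of 1.48 points.

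Zfp36 had the largest difference. WT embryos ranged from 25.9 to 44.4% (median 32.7%), HET from 30.2 to 54.1% (median 39.8%) and KO from 33.3 to 85.7% (median 60.7%). KO embryos lay above WT in 15 of 16 cases, the exception again the library labelled KO replicate 1 of 30 ppm, and HET lay between with overlap on both sides. The difference was 27.0 points (SE 4.72, adjusted p = 3.38e-06), over 3 coding CpGs with 26 to 295 reads per embryo. Each of the 3 CpGs was 24.4 to 29.9 points higher in KO.

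Zfp575 ranged from 23.9 to 49.6% (median 38.03%) in WT, from 38.33 to 48.9% (median 46.4%) in HET and from 39.3 to 74.6% (median 61.3%) in KO. Again 15 of 16 KO embryos exceeded every WT value, and the same 15 were above every HET embryo. The difference was 22.0 points (SE 3.05, adjusted p = 1.38e-07), also over 3 coding CpGs. These CpGs are far apart in level, at 14.1, 50.47 and 48.2% in WT and 33.1, 80.0 and 68.3% in KO.

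With all libraries kept, Zfp579 was the gene in which every KO embryo was above every WT embryo at the last exon. This held for 0 of 66 promoters and 1 of 39 last exons here, beside 0.914% and 2.03% of all genes. In Zfp36 and Zfp575 the only KO embryo not above every WT embryo was the doubtful KO replicate 1 of 30 ppm. These counts were not recomputed without the doubtful libraries. In Zfp579, WT ranged from 29.5 to 40.6% (median 35.17%), HET from 37.1 to 45.7% (median 40.7%) and KO from 43.9 to 62.3% (median 54.1%). The difference was 18.7 points (SE 2.08, adjusted p = 5.74e-10), and KO was higher in 8 of 8 litters by 15.4 to 23.1 points. All 19 CpGs were higher in KO, 15 of them by over 10 points and 7 by over 20. No CpG was compared from −489 to 680 bp around the start, so where along the gene the difference begins was not measured.

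Zfp30 is a KRAB zinc finger gene with 6 linker copies, and its was the only called last exon with an array found by that search. Zfp108, called at its promoter, has 7 copies and Zfp473, called in its remainder, has 3. WT ranged from 42.94 to 60.4% (median 50.26%), HET from 44.6 to 62.5% (median 54.6%) and KO from 56.4 to 76.6% (median 68.5%). WT and HET overlapped widely, and 14 of 16 KO embryos exceeded the highest WT value. The difference was 18.6 points (SE 2.47, adjusted p = 2.86e-08). All 26 CpGs were coding and higher in KO, 23 by over 10 points. Its promoter, in contrast, was at 6.96% in WT and differed by 0.631 points (adjusted p = 0.774).

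**Figure D2:**
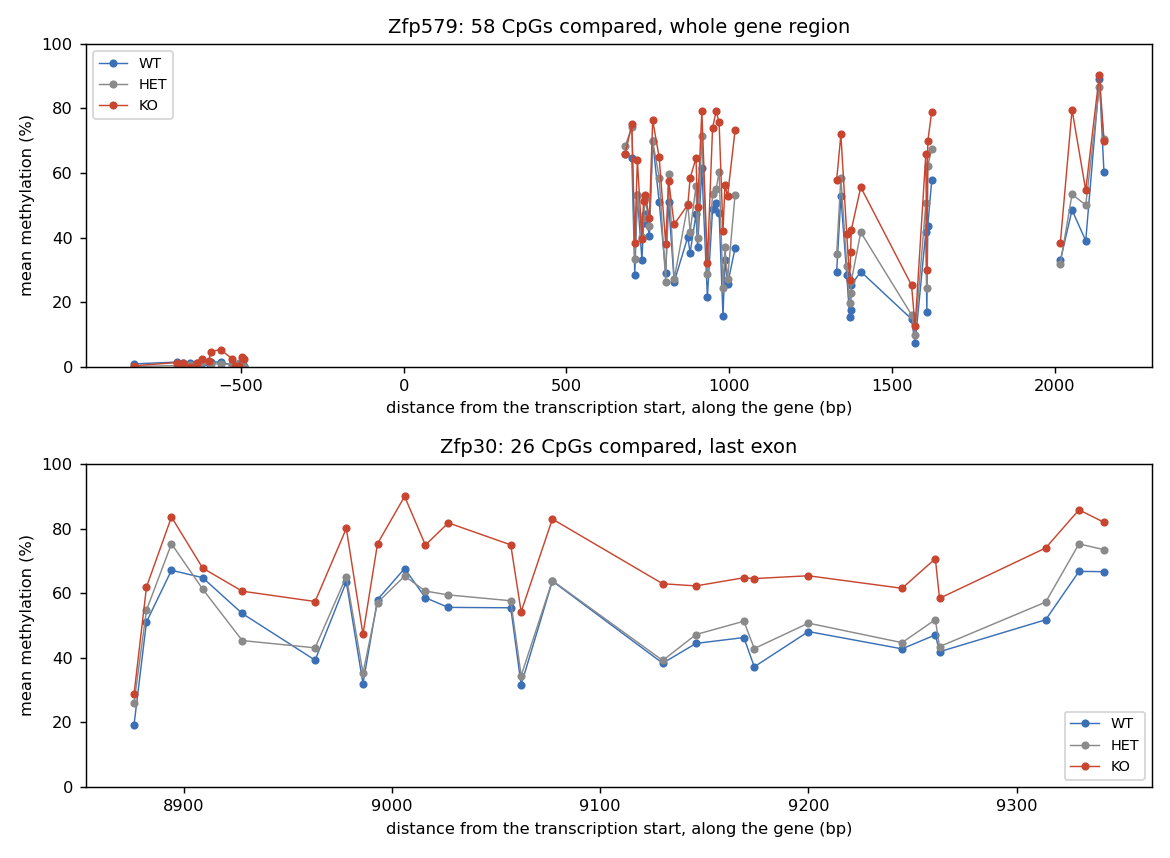
Mean methylation (%) of each compared CpG in WT (blue, 9 embryos), HET (grey, 10) and KO (red, 16) against distance from the transcription start along the gene (bp), for the whole region of Zfp579 and the last exon of Zfp30. Lines are broken where CpGs are far apart. CpGs before the start of the Zfp579 transcript used are near 0 in all genotypes, and 57 of its 58 CpGs lie inside the annotated gene. Of the 58, 52 are higher in KO, and all 26 CpGs of Zfp30 are higher in KO.

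Zfp444 ranged from 37.2 to 59.2% (median 41.79%) in WT, from 30.7 to 56.1% (median 47.5%) in HET and from 40.6 to 75.8% (median 62.4%) in KO. The overlap was widest here, where 10 of 16 KO embryos exceeded the highest WT value. The difference was 16.2 points (SE 3.63, adjusted p = 0.000844), all 16 CpGs were higher in KO and 14 rose by over 10 points. In all of Zfp108, Zfp36, Zfp575, Zfp579, Zfp30 and Zfp444 the lowest KO embryo was the library labelled KO replicate 1 of 30 ppm.

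**Figure D3:**
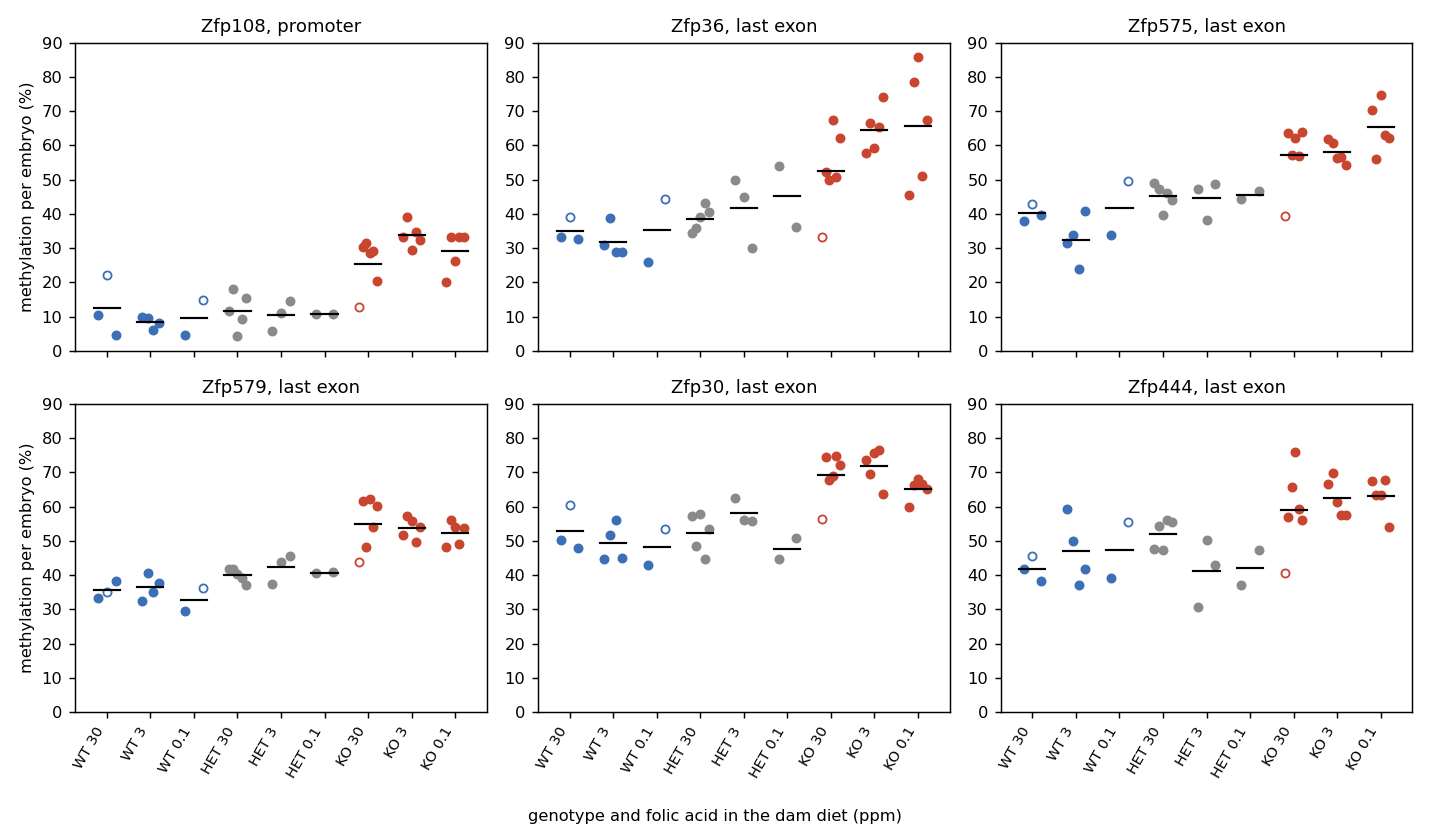
Methylation (%) of each embryo (points) with the group mean (bars) for the 6 genes called in promoter or last exon, by genotype and folic acid in the dam diet (ppm). Open circles mark the 3 libraries whose Tet1 CpG went against the label. KO points are the highest in each panel, and the open KO circle is the lowest KO point in each.

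The next largest differences, under 10 points, were those of Zfp689 (9.81 points, SE 1.48, adjusted p = 2.18e-06), Zfp787 (9.27 points, SE 1.93, adjusted p = 2.82e-06) and Zfp628 (6.52 points, SE 2.01, adjusted p = 0.000192), with WT means of 76.5, 78.9 and 71.5%. Without the 3 doubtful libraries they differed by 12.03, 13.4 and 10.7 points, the 5 called genes by 20.4 to 32.0 points, and 8 last exons were called in place of 5. Leaving out those libraries keeps 1 WT embryo on 0.1 ppm, WT replicate 1, which then has the weight of a whole diet in these differences. With that embryo alone left out, Zfp787 and Zfp628 differed by 6.06 and 3.74 points. In embryos with the phenotype label norm only, the 5 differed by 18.8 to 27.2 points. Zfp580 rose from 7.82% by 6.30 points (adjusted p = 1.60e-05), and Zfp771 by 0.471 points (SE 0.132, adjusted p = 0.000542, with embryos weighted equally 0.0570). The others with an adjusted p under 0.05 were Zfp109, Zfp574, Zfp14, Zfp536, Zfp710, Zfp629 and Zfp668, which rose by 0.959 to 3.93 points. Zfp764, Zfp28 and Zfp94 had differences of −0.771, −0.266 and −0.140 points with adjusted p of 0.415, 0.688 and 0.860.

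The number of linker copies was set beside the last exon values as a description. Over all genes 14.1% of last exons were called. Among 13 genes with 0 copies, 4 were called, namely Zfp579, Zfp444, Zfp575 and Zfp36, with a median difference of 2.91 points. Among 10 with 1 to 5 copies, 0 were called (median 0.585 points), and among 16 with 6 or more, 1 was (median 1.85 points). With the 3 doubtful libraries left out, 4, 2 and 2 were called, beside 17.4% of all genes. The WT median of the 16 was 89.6%.

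Along the chromosome, counts of called genes are to be read beside the 14.1% of all last exons called and the 49.6% that passed the test. In the run from Zfp628 to Zfp580 (chr7:4915217-5053723, 6 genes), the 6 promoters had a WT median of 0.817% and the 4 compared last exons one of 53.4%, with a median difference of 6.41 points, 3 passing the test and Zfp579 called, and without the doubtful libraries Zfp628 too. In the run of 14 genes the 9 promoters had a WT median of 0.877% and the 7 last exons 87.7%, with a median difference of 1.99 points and Zfp575 called. The run of 15 genes had 11 promoters at 0.808% and 8 last exons at 93.8%, with a median difference of 1.34 points and Zfp30 called. In the run from Zfp553 to Zfp646 (10 genes, chr7:127233061-127885996), 10 promoters were at 0.926% and 8 last exons at 94.2%, with a median difference of 0.715 points, 4 passing the test and 0 called, or 1 (Zfp689) without the doubtful libraries. The run of 6 genes from Zfp787 to Zfp28 had 5 promoters at 0.664% and 3 last exons at 78.9%, with a median difference of 9.27 points, 2 passing the test and Zfp444 called, and without the doubtful libraries Zfp787 too. The run of 6 from Zfp60 to Zfp36 had 5 promoters at 0.612% and a single last exon compared, that of Zfp36. The run of 7 from Zfp551 to Zfp446 had 5 promoters at 0.716% and 1 last exon at 94.0%, with 0 called. Of the 9 genes between Zfp141 and Zfp819 only 3 promoters and 1 last exon held enough CpGs. These are medians over few genes and were not tested against each other.

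Outside promoters and last exons, Zfp473 had the largest difference. Its 6 CpGs ranged from 37.4 to 62.8% (median 52.5%) in WT and from 49.7 to 78.1% (median 69.5%) in KO, and 12 of 16 KO embryos exceeded the highest WT value. The difference was 18.8 points (SE 3.23, adjusted p = 0.000573), but it was 9.95 points when each CpG had equal weight and 20.8 points without the doubtful libraries. CpGs 3753 and 3791 bp after the start went from 10.5 and 4.45% to 41.18 and 36.72%, while 3 others were at 93.3 to 95.6% in WT and 88.0 to 93.0% in KO. Zfp790 differed by 8.30 points (SE 1.49, adjusted p = 4.15e-05), and by 10.7 points without the 3 doubtful libraries. Zfp93 differed by 6.77 points (SE 3.11, adjusted p = 0.0479, with litter as a block 0.165), and its adjusted p was also above 0.05 without the doubtful libraries (0.0569). Over the whole region, the differences were 19.3 points in Zfp108, which is its promoter value since no other CpG was measured, 12.6 points in Zfp579 and 11.1 points in Zfp30.

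HET embryos were compared with WT and KO to see whether a single intact allele changes these genes. No promoter was called between HET and WT (0.0155% of all genes), and 5 of 66 had an unadjusted p under 0.05 (7.58%, beside 7.75% of all genes). No last exon was called either (0.828% of all genes), with 6 of 39 under 0.05 unadjusted (15.4%, beside 16.1%), and Zfp579 alone had an adjusted p under 0.05 (6.01 points, SE 1.49, adjusted p = 0.0169), beside 2.49% of all genes. Without the 3 doubtful libraries 4 last exons had an adjusted p under 0.05 (Zfp579, Zfp575, Zfp628 and Zfp30, by 5.64 to 10.2 points), beside 11.9% of all genes, and so did the Zfp819 promoter (4.83 points, SE 1.38, adjusted p = 0.0151), beside 1.99%. With an unadjusted p under 0.05 there were then 10 promoters (15.2%, beside 13.3% of all genes) and 8 last exons (20.5%, beside 25.9%). Zfp36 and Zfp575 differed by 7.78 and 7.06 points (adjusted p of 0.455 and 0.135), and without the 3 doubtful libraries Zfp575 was called at 10.2 points, 1 of 39 beside 2.58% of all genes, and 0 of 66 promoters were, beside 0.310%. In embryos labelled norm it was the 1 last exon called, beside 1.44%. Between KO and HET, the promoters and last exons called were those of the same 6 genes as between KO and WT. These were Zfp108 at its promoter (18.5 points, 1 of 66 beside 3.33% of all genes) and the 5 last exons by 12.7 to 19.2 points (5 of 39 beside 10.0%). Without the doubtful KO library the same 6 were called, Zfp108 by 19.4 points (beside 3.53%) and the last exons by 13.4 to 20.5 points (beside 10.9%). Among remainders 2 of 45 were called between KO and HET, beside 4.01% of all genes, namely Zfp473 (14.1 points) and Zfp93 (12.5 points, SE 3.30, adjusted p = 0.00585), the latter not called between KO and WT, and both were called without the doubtful KO library, beside 4.55%.

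On each diet alone, the genotypes were compared in groups as small as 2 embryos. On 3 ppm the promoters of Zfp108 (25.5 points, SE 1.96) and Zfp146 (16.6 points, SE 2.86) were called, beside 4.90% of all genes, and the last exons of Zfp579, Zfp575, Zfp36 and Zfp30 by 17.3 to 32.8 points, beside 16.6%. On 30 ppm no promoter was called, beside 1.79%, with 11 of 66 under 0.05 unadjusted (16.7%, beside 19.3% of all genes). There the last exons of Zfp579, Zfp444, Zfp575 and Zfp30 were called by 16.3 to 19.4 points, beside 8.28%, and with litter as a block Zfp579 alone was. On 0.1 ppm the promoters of Zfp579 (13.9 points), Zfp108 (19.5 points) and Zfp575 (10.2 points) were called, beside 4.13%, but none with litter as a block. The last exons of Zfp579, Zfp787, Zfp575, Zfp36, Zfp30 and Zfp689 were called there by 10.8 to 30.5 points, beside 13.9%.

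The 30 ppm values rest on the library labelled KO replicate 1 and on few WT embryos. Zfp108 had 10.4, 22.2 and 4.55% in the 3 WT embryos on 30 ppm and 12.9, 30.4, 31.4, 28.4, 29.1 and 20.3% in the 6 KO embryos, in replicate order. The 12.9% and the 22.2%, which belong to the doubtful libraries, are the lowest KO and the highest WT value on that diet. Without those libraries, 9 of 39 last exons and the Zfp108 promoter were called on 30 ppm, beside 16.1% and 4.58% of all genes. The last exon count was 0 without WT replicate 1 of 30 ppm and 1 without KO replicate 2, 3, 4 or 5 or WT replicate 3 of 30 ppm, and 2 without KO replicate 6. On 0.1 ppm it was 2 in place of 6 without WT replicate 1. Leaving out the doubtful WT replicate 2 of 0.1 ppm leaves 1 WT embryo there, which is assumed to vary like the KO group. The promoters called were then Zfp108 (24.6 points), Zfp541 (12.6 points) and Zfp819 (10.4 points), beside 4.08% of all genes, while Zfp579 and Zfp575 differed by 8.49 and 8.82 points. The last exons called were then 8, beside 16.7%, by 12.2 to 39.7 points.

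**Figure D4:**
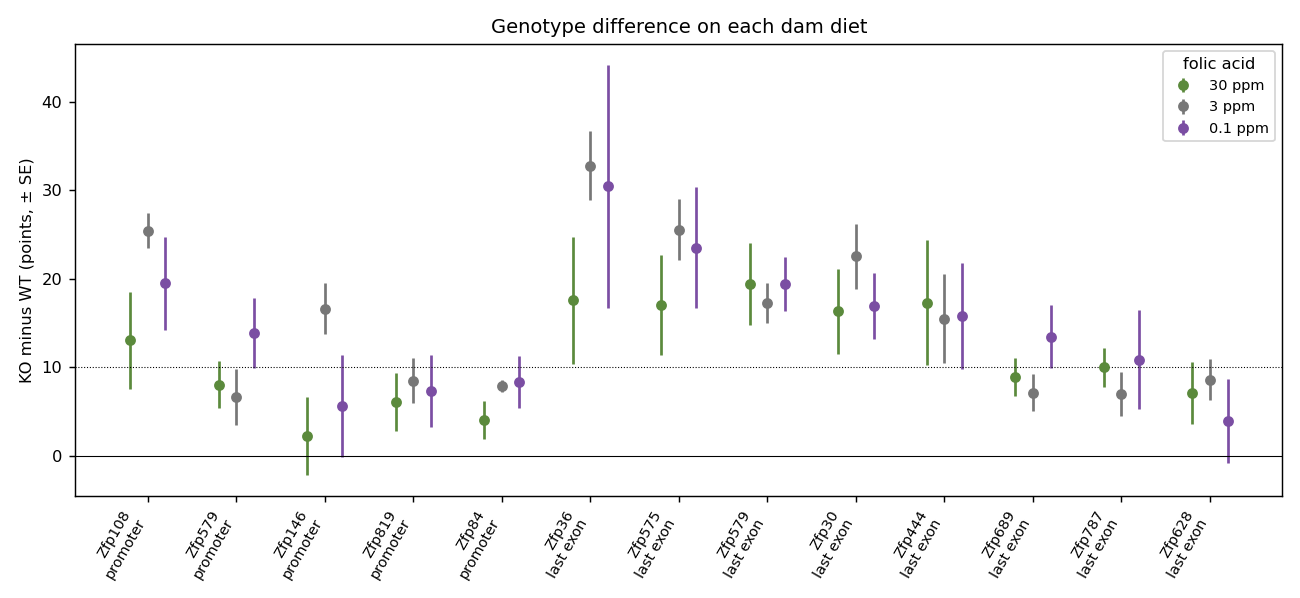
KO minus WT difference (points, ± SE) on 30 ppm (green), 3 ppm (grey) and 0.1 ppm (purple) folic acid for the promoters and last exons with the largest differences over 3 diets. The dotted line marks 10 points. All differences are positive, and Zfp146 has the widest spread among promoters, from 2.19 points on 30 ppm (5.75 points without the doubtful libraries) to 16.6 points on 3 ppm.

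Diet itself was compared within each genotype, against the 3 ppm group, and 0 promoters or last exons of these genes were called in any of the 6 comparisons. The share of all genes called was 0% for 30 and for 0.1 ppm in WT, 0% for 30 ppm in HET, 0.0309% for 0.1 ppm in HET and 0% for both in KO. With an unadjusted p under 0.05 there were 3 to 7 promoters of 66 and 2 or 3 last exons of 39 in each, that is 4.55 to 10.6% and 5.13 to 7.69%, beside 4.22 to 5.92% and 4.603 to 7.24% of all genes. Among promoters and last exons, the largest differences were those of the Zfp36 last exon in KO on 30 ppm (−11.99 points, SE 5.93, adjusted p = 0.640), of Zfp444 in HET on 30 ppm (10.9 points, SE 4.87, adjusted p = 0.326) and of Zfp30 in HET on 0.1 ppm (−10.4 points, SE 3.69, adjusted p = 0.2005). Without the doubtful libraries 0 promoters or last exons of these genes were called either, and the share of all genes called was 0.0371% for 0.1 ppm in WT and 0% for 30 ppm in WT and in KO. Among the comparisons that held those libraries, the largest differences were then those of the Zfp787 last exon (−14.1 points, SE 5.07, adjusted p = 0.369) and the Zfp772 promoter (−10.3 points, SE 5.21) on 0.1 ppm in WT, where 1 embryo was left, while the Zfp36 last exon in KO on 30 ppm differed by −8.12 points. In the remainder of Zfp473, 0.1 ppm differed from 3 ppm in WT by −14.8 points with all libraries (SE 3.65, adjusted p = 0.998). Each litter had 1 diet, with 4 litters per diet, and these fits treat embryos of a litter as separate samples, so the spread between litters was not taken into account.

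Whether the genotype difference changed with diet was tested as an interaction, and 0 promoters or last exons were called for 30 or for 0.1 against 3 ppm (0% of all genes in both). With an unadjusted p under 0.05 there were 6 and 5 promoters (9.09 and 7.58%, beside 6.69 and 4.4004% of all genes) and 1 and 1 last exons (2.56% in both, beside 8.62 and 5.15%). Among promoters and last exons, the largest term was that of the Zfp36 last exon, −15.2 points on 30 ppm (SE 8.06, adjusted p = 0.468), followed by the Zfp146 promoter, −14.4 points (SE 5.21, adjusted p = 0.634). Zfp146 had 6.38 to 14.04% in the 4 WT and 18.9 to 31.8% in the 5 KO embryos on 3 ppm. On 30 ppm its 3 WT embryos had 12.6, 16.5 and 14.6% and its 6 KO embryos 3.85, 25.4, 17.2, 14.9, 18.1 and 21.1%, and the 3.85% belongs to the library labelled KO replicate 1. Without the doubtful libraries these terms were −9.32 points in Zfp36 and −10.9 points in Zfp146, the largest was that of the Zfp787 last exon on 0.1 ppm (13.5 points, SE 4.48, adjusted p = 0.904), and 0 were called. On 0.1 ppm the remainder of Zfp473 had a larger term, 18.8 points (SE 5.26, adjusted p = 0.998), and 16.9 points without the doubtful libraries. It had 41.29 and 37.4% in the 2 WT and 67.6 to 74.3% in the 5 KO embryos on 0.1 ppm. On 3 ppm it had 48.9 to 59.7% in WT and 60.9 to 76.7% in KO. The share of all genes with separate genotypes on a single diet was not computed. The SEs of the 30 ppm terms ranged from 0.166 to 7.10 points over the promoters (median 0.694) and from 0.326 to 8.67 points over the last exons (median 2.53), so the precision differed widely between genes.

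The partners through which KRAB zinc finger proteins silence their targets were read the same way, as a list of 12 genes: Trim28, Setdb1, Atf7ip, Cbx1, Cbx3, Cbx5, Smarcad1, Chd4, Hdac1, Morc3, Uhrf1 and Dnmt1. Of 11 promoters compared, 2 rose and 0 were called, beside 30.2% and 4.18% of all genes. Those that rose were Setdb1 (5.86 points, SE 1.70, adjusted p = 0.000105) and Atf7ip (1.38 points, SE 0.650, adjusted p = 0.00831). Outside promoters and last exons, 2 of 11 rose and 1 was called, beside 50.8% and 6.87% of all genes. Trim28, which itself lies on chromosome 7, went from 28.6% ± 2.56 to 39.9% ± 4.81 over 49 CpGs (11.7 points, SE 1.71, adjusted p = 1.18e-06) and was called, and Dnmt1, the maintenance methyltransferase, rose by 2.45 points (SE 0.530, adjusted p = 6.58e-05). Without the doubtful libraries the Trim28 remainder differed by 13.2 points, the Dnmt1 remainder by 2.62, the Setdb1 promoter by 7.34 and the Atf7ip promoter by 1.84 points. The Trim28 promoter was at 0.511% in WT and 0.570% in KO (adjusted p = 0.729).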

How the data were processed

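Single E11.5 brains were profiled by oxidative bisulfite RRBS. Per the submitters' processing notes, reads were handled with Trim Galore 0.6.10, Bismark 0.24.1, UMI-tools and methylKit 1.26.0 in R 4.3.1 on mm10. The deposited tables list, per CpG, the methylated fraction and the coverage as read counts, made by the authors. Deposited lists of differential regions were not used. Listed positions count from 0 and were raised by 1. Methylated reads were taken as fraction × coverage. CpGs with at least 5 reads in all 35 embryos were pooled per gene and piece, with at least 3 CpGs. WT, HET and KO were compared with diet as a term, each diet apart, and diets within genotype, with a quasi-binomial logistic model whose dispersion was moderated as in limma 3.58.1 (R 4.3.3) and held at 1 or more, by two-sided F tests with Benjamini-Hochberg adjustment over all genes of a piece (Python 3.11.15, numpy 2.4.6, pandas 2.3.3, scipy 1.17.1). The procedure was run on simulated counts for KO against WT over 3 diets only, for promoters and last exons, without a litter effect. The other comparisons and pieces were not simulated. Coverage is 10.9 to 61.5 reads per CpG and library, which limits single CpGs more than pooled pieces. The p-values rest on the spread between single embryos, moderated across genes and never taken as less than that of read sampling. They come from summed reads, so embryos with more reads weigh more.

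The genes and lists were chosen with earlier results of these data known. Named are, for promoter and last exon, the 8 largest positive and 3 most negative differences and the highest and lowest WT level, 3 genes for each of the other pieces, and the partners. Genes given beside a count of 5 or fewer, and those listed as passing the test, were named after their values were seen. Titles give the litter. Of the 12 litters (4 per diet), 8 hold WT and KO and so pair the samples, and the correlation of their deviations from group means was −0.149 to 0.473, over 0.1 in 4 of 8. Alternatives were the coverage minimum (10), CpGs covered within each comparison, equal CpG weight, an SD filter of 2 points, a difference of 5 points, a 500 bp promoter, litter as a block, leaving out libraries, and keeping the shallow one. Equal embryo weight and embryos labelled norm only were added after seeing the data.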

Additional observations from a re-analysis of the deposited data

Results flagged for a closer look

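Over 155 groups of 4 to 6 embryos for the named genes, 8 held an embryo whose gap to the nearest other, relative to the range of the group, was above Dixon's 95% critical value. Chance alone flags about 5% of such groups. In the library labelled KO replicate 1 of 30 ppm, the Zfp575 last exon was at 39.3%, where the other 5 KO embryos on that diet had 56.8 to 64.0%, and the Zfp787 last exon at 81.0%, where the others had 86.9 to 90.1%. The same library had 45% at the Tet1 CpG. The Zfp93 remainder was at 51.6% in KO replicate 1 of 3 ppm (the other 4 at 63.6 to 65.3%), and the Zfp764 last exon at 92.8% in HET replicate 5 of 30 ppm (the others at 96.6 to 97.9%). The other 4 are promoters where all remaining embryos of the group had 0%: Zfp850 at 2.30% in KO replicate 2 of 30 ppm and 1.42% in KO replicate 5 of 0.1 ppm, and Zfp580 at 0.800% and Zfp524 at 2.93% in KO replicate 3 of 3 ppm.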

How the results depend on the processing

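Counts of these genes called were recomputed for 22 comparisons. Of 199 values under alternatives other than leaving out an embryo, 164 stayed within 1.5 times the count, as did 306 of 321 that left out an embryo. Over 3 diets, promoters called (1) were 2 with a coverage minimum of 10, 6 at a difference of 5 points, 2 without the 3 doubtful libraries, 2 in embryos labelled norm and 1 to 2 with an embryo left out. Last exons (5) were 9 at 5 points and 8 without the doubtful libraries. Remainders (1) were 0 with equal CpG weight, 5 at 5 points, 3 with a 500 bp promoter, 2 without the doubtful libraries and 2 in embryos labelled norm. Whole regions (3) were 8 at 5 points and 5 without the doubtful libraries. On 30 ppm, promoters (0) were 1 with coverage 10, 1 at 5 points, 1 without the doubtful libraries and 0 to 1 with an embryo left out, and last exons (4) were 2 with coverage 10, 1 with litter as a block, 9 without the doubtful libraries, 1 with equal embryo weight and 0 to 6 with an embryo left out. On 3 ppm, promoters (2) were 4 with equal CpG weight, 6 at 5 points and 1 with a 500 bp promoter, and last exons (4) were 9 at 5 points. On 0.1 ppm, promoters (3) were 1 with equal CpG weight, 6 at 5 points, 1 with a 500 bp promoter and 0 with litter as a block, and last exons (6) were 3 with coverage 10 and 2 to 8 with an embryo left out. Last exons between KO and HET (5) were 3 with coverage 10, and promoters (1) were 3 at 5 points. Last exons between HET and WT (0) were 1 at 5 points, without the doubtful libraries or in embryos labelled norm. For 0.1 against 3 ppm, the count of 0 was 1 in HET with the SD filter, 0 to 1 in HET with an embryo left out and 0 to 1 in WT. Litter as a block moved no other count by over 1.5 times. The cause of these shifts was not tested.

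Of 325 differences of named genes, 298 kept sign and call, 2 lost the call (Zfp473 9.95 points with equal CpG weight, the whole Zfp30 region 9.28 points without WT replicate 1 of 0.1 ppm), 15 gained it and 10 changed sign. These were Zfp27 (−2.26 points, 500 bp promoter), Zfp772 (−1.23 points with coverage 10 and with a 500 bp promoter, −0.410 points without WT replicate 1 of 0.1 ppm), Zfp524 (−0.0365 points without KO replicate 3 of 3 ppm), Zfp28 (0.479 points without WT replicate 1 of 0.1 ppm) and Zfp94 (0.401 points with equal CpG weight, 0.546 points without the doubtful libraries, 0.0198 points in embryos labelled norm, 0.619 points without WT replicate 2 of 0.1 ppm). Main values of Zfp772, Zfp524, Zfp28 and Zfp94 had adjusted p above 0.4. Zfp108, Zfp36, Zfp575, Zfp579 (last exon), Zfp30 (last exon) and Zfp444 stayed called with any single embryo left out.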
